A study of Mus musculus with 23 samples.

Results

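Regions of open chromatin that lie deep inside very long genes were described across 11 groups of mouse monocytes and macrophages. Peaks of 23 ATAC-seq libraries were merged into 155137 regions on the autosomes and the X chromosome wherever they overlapped by at least 1 bp, and a region was taken when its centre lay inside a protein-coding gene body longer than 500 kb (mm10 coordinates) and more than 5 kb from either end of that gene. This gave 4209 regions, 2.71% of all, called members below. Of 227 such genes, 203 held at least 1 member and 24 held none. ATAC-seq uses a transposase that cuts accessible DNA and leaves sequencing adapters, so that a peak marks DNA not tightly wrapped in nucleosomes.

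The libraries belonged to 4 experiments on Kupffer cells (macrophages that reside in the liver) and their precursors. The animals were male according to the labels. In the repopulation experiment, 2 libraries came from blood Ly6C-high monocytes of untreated C57BL/6J mice. The others there came from Clec4f-cre/Rosa26iDTR mice, in which Clec4f-cre, active in Kupffer cells, switches on a diphtheria toxin receptor. They were 3 libraries of RLM (repopulating liver macrophages) from mice given diphtheria toxin for 24 h, 2 for 48 h, and 2 of Kupffer cells from PBS-treated mice. In the Nr1h3 experiment, on the gene of the nuclear receptor LXRα, 2 libraries came from TIM4+ Kupffer cells of untreated Nr1h3 flox/flox controls. Another 2 came from TIM4+ and 2 from TIM4- Kupffer cells of untreated Nr1h3 flox/flox Clec4f-cre +/- knockouts. The titles mark the controls as Clec-negative and the knockouts as Clec-positive without saying more. In the Smad4 experiment, on the common mediator of TGF-β and BMP signals, 2 libraries of untreated Kupffer cells were titled knockout and 2 control. The strain labels give the opposite, Smad4 flox/flox for the libraries titled knockout and Smad4 flox/flox Clec4f-cre +/- for those titled control, so Smad4 directions are given by title and are the reverse by strain label. In the culture experiment, bone marrow-derived macrophages (BMDMs) of C57BL/6J mice, grown for 4 days, were left untreated (2 libraries) or given the Notch ligand DLL4 for 24 h (2 libraries). Both cultured groups thus carry no allele of the liver experiments and were not in a liver.

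Very long genes are mostly known from neurons, where they encode synaptic adhesion molecules, scaffolds and ion channels, and several coincide with common fragile sites. Their bodies are mostly intron, and introns can hold enhancers, short stretches that transcription factors open and that can act on the start of the same gene or of another one far away. Macrophage enhancers are opened by lineage factors and, in the liver, by signals such as LXR ligands, Notch ligands and TGF-β and BMP family members, so a region inside a neuronal gene body need not act on that gene.

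Few members overlapped an annotated start of transcription, and such a start was listed for 179 of the 227 long genes. Of the 4209 members, 42 overlapped a start window of any gene. Only 24 overlapped an annotated start window of their own gene (250 bases before to 50 bases after the start, RefSeq, GRCm38.p6), and sequence is shown for 4 of these, since they include starts that were called throughout and starts that had no peak in PBS Kupffer cells. Each line gives the 250 bases before the start, from 5′ to 3′ on the gene's strand, with CG dinucleotides in capitals. The Ank2 window (chr3:127409059-127409308, minus strand) belongs to an inner start whose member had its highest signal in PBS Kupffer cells. The Foxp1 window (chr6:99028299-99028548, minus strand) and the Rarb window (chr14:16575477-16575726, minus strand) lie under members without a peak in PBS Kupffer cells. The Nav2 window (chr7:49245939-49246188, plus strand) lies under a member called in all 23 libraries.
Ank2: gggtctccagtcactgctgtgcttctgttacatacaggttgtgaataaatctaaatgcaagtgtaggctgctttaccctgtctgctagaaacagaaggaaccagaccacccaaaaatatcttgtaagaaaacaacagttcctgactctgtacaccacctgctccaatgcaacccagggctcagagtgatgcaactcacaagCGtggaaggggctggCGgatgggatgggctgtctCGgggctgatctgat
Foxp1: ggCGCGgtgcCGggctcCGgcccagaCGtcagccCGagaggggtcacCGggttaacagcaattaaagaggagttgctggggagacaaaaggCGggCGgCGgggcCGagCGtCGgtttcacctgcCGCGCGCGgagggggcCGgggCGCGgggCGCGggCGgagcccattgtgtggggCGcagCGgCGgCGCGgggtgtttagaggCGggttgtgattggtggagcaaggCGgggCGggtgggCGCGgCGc
Rarb: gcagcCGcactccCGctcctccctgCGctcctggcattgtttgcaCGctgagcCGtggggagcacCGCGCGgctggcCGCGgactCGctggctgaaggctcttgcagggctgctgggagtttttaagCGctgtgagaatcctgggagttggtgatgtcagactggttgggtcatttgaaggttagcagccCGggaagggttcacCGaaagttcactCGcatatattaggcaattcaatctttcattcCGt
Nav2: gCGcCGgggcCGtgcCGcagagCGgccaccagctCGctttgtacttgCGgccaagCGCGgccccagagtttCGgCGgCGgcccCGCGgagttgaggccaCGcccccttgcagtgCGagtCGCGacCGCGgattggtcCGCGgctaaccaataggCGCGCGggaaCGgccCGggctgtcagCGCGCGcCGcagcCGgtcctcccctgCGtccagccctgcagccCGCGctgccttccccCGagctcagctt

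The 4 windows held 3, 34, 16 and 36 CG dinucleotides for Ank2, Foxp1, Rarb and Nav2. Of 32407 windows of the same length in the RefSeq table, 71.4% held at least as many as Ank2, 3.57% at least as many as Foxp1, 25.7% at least as many as Rarb and 2.61% at least as many as Nav2. Ank2 encodes ankyrin-B, which links membrane proteins to spectrin, and Nav2 a cytoskeletal protein of growing axons. Foxp1 is a forkhead repressor and Rarb the β retinoic acid receptor. The Nav2 start carried 379.1 and 327.9 normalised tags (tags in the peak per 10 M tags of the library) in PBS Kupffer cells and 224.6 and 341.8 in blood monocytes. The Foxp1 start (member chr6:99028072-99028450) carried 28.5 and 33.1 in blood monocytes, 30.9, 30.0 and 16.1 at 24 h and 30.5 and 35.9 at 48 h. It had no peak in either PBS Kupffer library and was called in 16 libraries in all. The Rarb start (chr14:16575397-16575769) carried 19.5 and 17.6 in blood, 24.3, 21.8 and 28.5 at 24 h and 27.9 and 35.2 at 48 h, and again had no peak in PBS Kupffer cells. Of the 24 members at a start of their own gene, 8 (33.3%) were called in all libraries, against 6.94% of the members at no annotated start window of any gene. The windows under those 8 held a median of 7.5 CG dinucleotides, the windows under the other own-start members 14, and all windows 6.

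Members were spread thinly. The long genes held 22.3 members per Mb of the bases that could hold one, against 72.9 regions per Mb in the 2200 protein-coding genes of 100 to 500 kb (29304 regions, counted by the same rule on the ends). Regions called in all 23 libraries came to 1.60 per Mb in the long genes and 7.81 per Mb in the shorter ones. Of the members, 302 (7.18%) were called in all libraries, against 17.2% of all regions and 10.7% of those in genes of 100 to 500 kb. At the other end, 829 members (19.7%) were called in a single library, against 16.7% of all regions. Members were called in a median of 5 libraries, all regions in 7. In each of the 23 libraries the median normalised tag count of members was below that of the other regions, by a ratio of 0.608 to 0.760. The median width was 252 bp for members and 261 bp for all regions. The peaks of each library were found separately, so a region without a peak has no value there and need not be closed.

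The nearest other member on the chromosome lay at a median of 2.71 kb, and 63.6% of members had one within 5 kb. The median distance to the nearer end of the gene was 155 kb. Of the 3498 members in genes whose strand was known, 20.5% lay in the part nearest the start when the gene was cut into 5 equal parts, and 26.8% in the part nearest the end. Either end of a protein-coding gene not longer than 500 kb lay within 1 kb of the centre of 30 members. A total of 42 members lay inside more than 1 long gene, 29 of them in the overlapping genes Gm37013, Gm38666 and Gm38667, and cannot be given to either. The X chromosome held 85 members in 11 long genes.

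The number of members per gene ran from 0 to 115, with a median of 11, and 37 genes held 50% of the members. The 12 genes with most held 1013 members (24.1%). They were Foxp1 with 115, Arhgap26 (a GTPase-activating protein) with 103, Lpp (a LIM protein of focal adhesions) with 101, Pde4d (a cAMP phosphodiesterase) with 96 and Nav2 with 93. Zfhx3 (a zinc finger homeobox factor) held 90, Elmo1 (a partner of DOCK proteins in engulfment and migration) 84, Hdac9 (a class IIa histone deacetylase) 74 and Frmd4a (a FERM domain scaffold of cell polarity) 68. Rad51b (a recombination repair factor) held 67, Zbtb20 (a zinc finger repressor) 64 and Tenm4 (a teneurin) 58. The 24 genes without a member ran from 511 to 1346 kb. They were Sntg1, Rims1, Galnt13, B3galt1, Ptprt, Naaladl2, Dpyd, Skint5, Tmem132d, Cadps2, Tafa1, Grm7, Nell1, Gabrg3, Unc5d, Iqcm, Grik2, Syt1, Grid1, Cntnap5c, L3mbtl4, Aff2, Pcdh11x and Il1rapl2.

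The genes were sorted into 6 lists by what they are known for. The lists hold 129 of the 227 genes (Auts2 is in 2 of them), and 1457 members (34.6%) lie in the 98 genes of no list. Long genes of signalling and cytoskeleton known in leukocytes held 68.2 members per Mb (19 genes, 905 members) and transcription and chromatin regulators 43.2 (19 genes, 581 members). Genes of common fragile sites and large housekeeping genes held 22.6 (19 genes, 468 members). Teneurins, cadherins and axon guidance genes held 13.4 (23 genes, 307 members), synaptic adhesion and scaffold genes 10.7 (31 genes, 389 members), and neurotransmitter receptors and ion channels 8.05 (19 genes, 129 members). The last 3 lists, all of genes best known from neurons, were the sparsest of the 6.

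Among members called in all 23 libraries, the strongest lay in Prkg1 (chr19:31082659-31082952, a cGMP-dependent kinase gene) and carried between 159.6 and 698.4 normalised tags, with a median of 434.4. It was followed by members in Nfia (chr4:97772167-97772444, 145.1 to 585.6, median 435.7) and Arhgap26 (chr18:38992907-38993196, 142.3 to 509.6, median 387.3). The next were in Ank2 (chr3:127355286-127355571, 104.9 to 533.5, median 340.8) and Pard3 (chr8:127441200-127441534, 121.1 to 493.3, median 335.8), a polarity protein gene. In all 5, the lowest library was the first titled Smad4 knockout, which also had the smallest share of tags in peaks of the 23 libraries (15.4%) and the smallest median signal over regions that are not members. Over those regions the 4 Smad4 libraries had medians of up to 20.8 normalised tags, and the other 19 libraries medians of 24.0 to 35.9.

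Depth and peak number differed between libraries. They held 10.4 to 18.4 M tags, 15.4% to 54.7% of them in peaks, and 48775 to 104206 peaks, of which 717 to 2694 were members (median 1269). Replicate libraries shared 62.9% to 75.1% of the members called in either, and their log2 signal in shared members correlated with a Pearson r of 0.869 to 0.947, given as a description over regions. No pair of libraries was identical. Hepatocyte markers had no peak at their ends in any library (0 of 6 genes), and neuron markers had one at 0 or 1 of 6. Kupffer cell markers had one at 7 of 8 in each PBS, Nr1h3 control and titled Smad4 control library, 6 or 7 in Nr1h3 knockouts, 5 or 6 in titled Smad4 knockouts, 2 in each blood and 24 h library, 3 in each 48 h library, and 4 to 6 in cultured macrophages. T and NK cell markers had one at 0 to 2 of 5, B cell markers at 0 to 2 of 4, stellate cell markers at 0 or 1 of 6, and liver endothelial markers at 0 to 2 of 6 and, with DLL4, at 3. Monocyte markers had one at 2 or 3 of 5 in blood, 3 or 4 in culture and 0 or 1 elsewhere, and neutrophil markers at 2 of 4 in each cultured library and at 0 elsewhere. The part of other cell types in the results was not tested. Within Nr1h3, a region at chr2:91189796-91190011 had a peak in the 4 Nr1h3 knockout libraries alone (23 and 41.4 in TIM4-, 20.4 and 23.2 in TIM4+ cells), and the other 4 regions of the gene were called in all libraries. Peaks within Smad4 did not separate the titled groups, and a peak list cannot show a deleted exon. The repopulation titles number the mice. The Smad4 titles end in distinct numbers that the labels do not explain, and the others give only replicate numbers, so outside the repopulation experiment p-values measure the spread between libraries, which may be technical.

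Members made up a different share of the called regions in different cells. The share was 1.86% and 1.87% in the blood libraries, 1.96%, 1.89% and 1.77% at 24 h, 2.02% and 2.09% at 48 h, and 2.41% and 2.23% in PBS Kupffer cells. Both PBS Kupffer libraries stood above all others of the experiment, and the 48 h libraries stood above the blood and 24 h libraries. The 4 groups differed (F = 12.6, exact permutation test over the 9 libraries, one-sided, 7560 arrangements, p = 0.00873). With peaks of at least 15 normalised tags alone, the same exact permutation test gave p = 0.0564, and with lists cut to equal length p = 0.0619. The mean share of PBS Kupffer cells was above the means of the other 3 groups in those settings too, at 2.08% and 2.30% against 1.67% to 1.72% and 1.78% to 1.80%. With equal list lengths, however, the 48 h mean (1.796%) no longer stood above the 24 h mean (1.804%). The PBS Kupffer libraries had the smallest shares of tags in peaks of the 9 (32.6% and 36.6%), whose part in the result was not tested. Per 100 regions called in genes of 100 to 500 kb, there were 15.1 and 13.9 members in PBS Kupffer cells, 12.1 and 12 in blood monocytes, 12.7, 12.4 and 11.9 at 24 h and 12.5 and 12.5 at 48 h.

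The other Kupffer groups had smaller shares than PBS Kupffer cells. It was 1.91% ± 0.032 (SD, n = 2) in Nr1h3 controls, 1.55% ± 0.072 in TIM4+ and 1.74% ± 0.057 in TIM4- knockouts, 1.91% ± 0.013 in titled Smad4 controls and 1.56% ± 0.119 in titled knockouts. Each Nr1h3 knockout library lay below each Nr1h3 control, and each titled Smad4 knockout below each titled control (above, by strain label), and the exact permutation test of 2 against 2 libraries cannot give a p below 0.333. TIM4+ knockouts and titled Smad4 knockouts also had fewer peaks (48775 and 53972, and 49438 and 57403) than their controls (65621 and 58395, and 60727 and 67555), while TIM4- knockouts had more (68613 and 68757). The largest shares were in cultured macrophages, at 2.50% ± 0.168 untreated and 2.55% ± 0.024 with DLL4, whose lists were the longest (85563 to 104206 peaks).

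**Figure D1:**
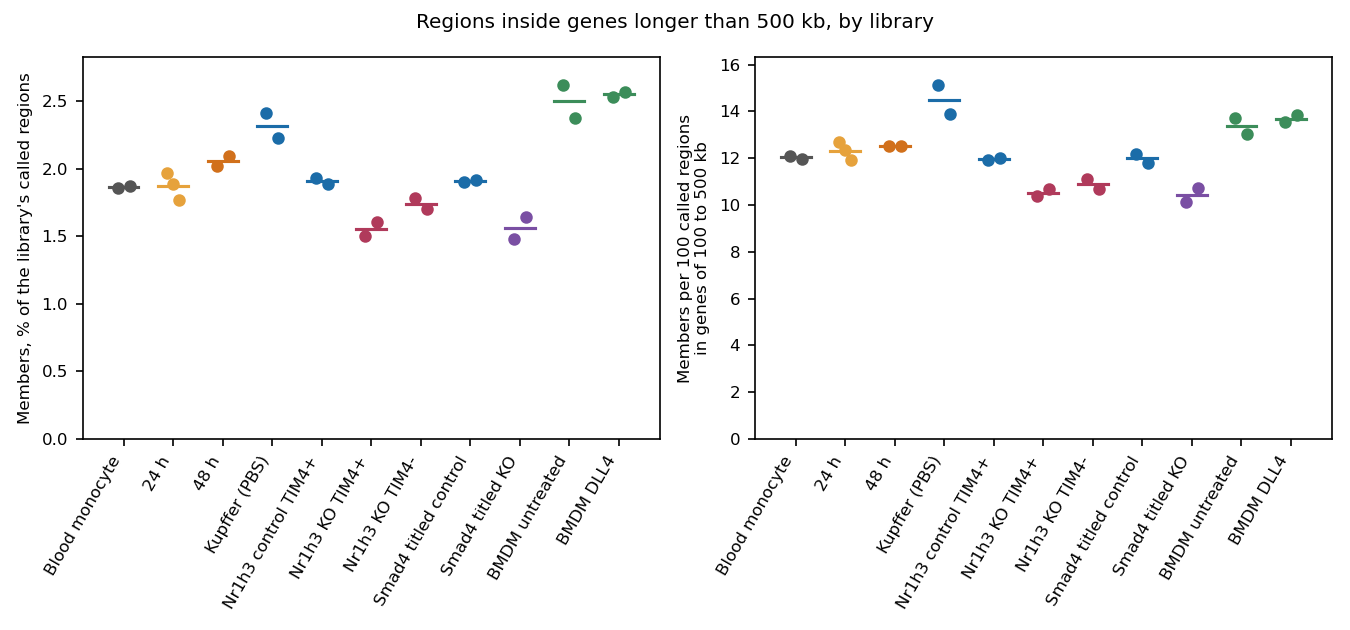
Share of called regions that are members (left, percent) and members per 100 called regions in genes of 100 to 500 kb (right) in each of the 23 libraries, by group. Points are libraries and bars are group means. The 2 PBS Kupffer libraries (2.41% and 2.23%) lie above the other libraries of the repopulation experiment, and each Nr1h3 knockout and titled Smad4 knockout library lies below its controls or titled controls.

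The largest difference among the comparisons was between PBS Kupffer cells and blood monocytes. These groups differ in tissue, strain and PBS treatment together, and the parts of each cannot be told apart. Of the 2405 members called in any of the 4 libraries, 590 (24.5%, in 121 genes) were called in both Kupffer libraries and in neither blood library, against 12.8% of all regions (percent of regions called, all regions) and 16.4% of those in genes of 100 to 500 kb. In the other direction, 411 members (17.1%) were called in both blood libraries and in neither Kupffer library, against 15.9% of all regions and 17.8% in genes of 100 to 500 kb. The members' share was thus above that of all regions on the Kupffer side and near it on the blood side. Cutting all lists to equal length gave 602 Kupffer-only and 345 blood-only members, and the shares of all regions in that setting are not given here.

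Different genes held most regions of the 2 kinds, though some genes held both. Kupffer-only members were most numerous in Ptprm (20 of its 55 members), a homophilic receptor tyrosine phosphatase, in Cdk14 (19 of 47), a cyclin-dependent kinase of Wnt signalling, and in Dlgap2 (18 of 26), a scaffold of the postsynaptic density. Blood-only members were most numerous in Foxp1 (33 of 115), Pde4d (22 of 96) and Arhgap26 (18 of 103). Of these genes, Ptprm and Dlgap2 also held 1 blood-only member each, and Pde4d 2 and Arhgap26 4 Kupffer-only members. Cdk14 and Foxp1 held none of the other kind. By list, 79 of 198 tested members in synaptic adhesion and scaffold genes were Kupffer-only and 29 blood-only. For receptors and ion channels it was 26 and 3 of 76, and for teneurins, cadherins and axon guidance genes 60 and 33 of 179. Transcription and chromatin regulators had 52 and 75 of 324, leukocyte signalling and cytoskeleton genes 85 and 96 of 499, and fragile site and housekeeping genes 73 and 59 of 276. Kupffer-only members were the more numerous kind in the 3 lists of neuronal genes and in fragile site genes, and blood-only members in the lists of regulators and of leukocyte genes. Over all regions, too, blood-only ones were the more numerous (15.9% against 12.8% Kupffer-only). The Kupffer-only shares of regulators (16.05%) and leukocyte genes (17.03%) were above that of all regions, as were their blood-only shares (23.15% and 19.24%).

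**Figure D2:**
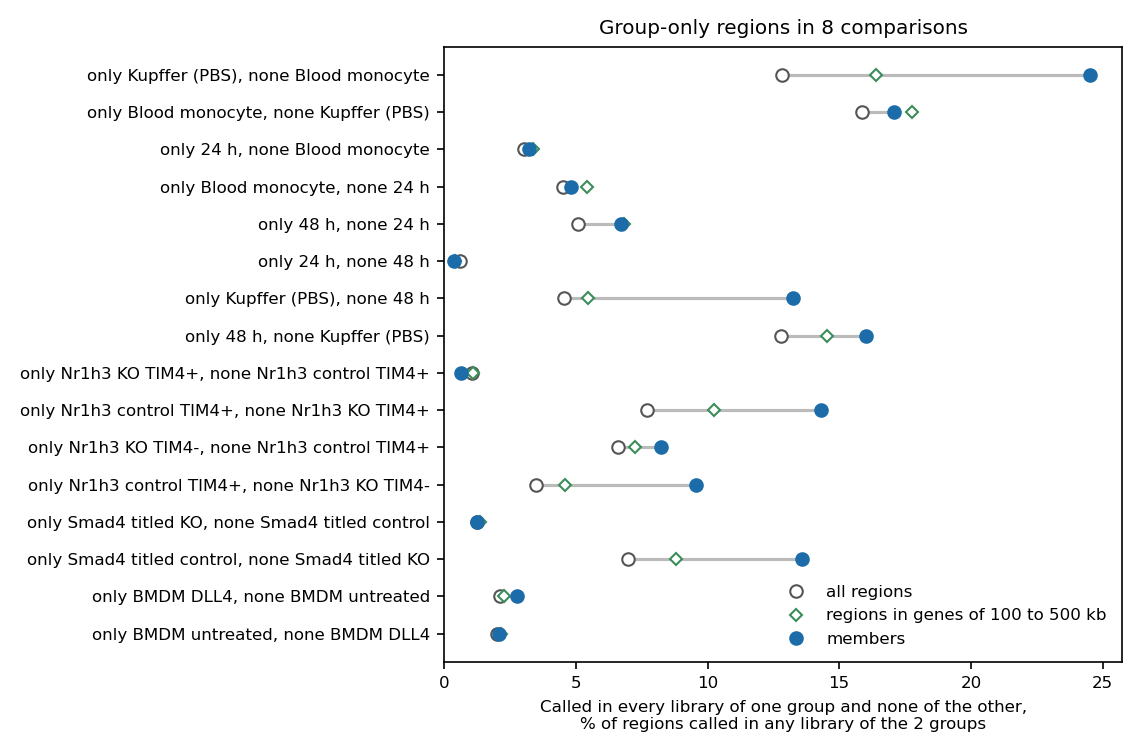
Percent of regions called in every library of a group and in no library of the other, out of regions called in any library of both groups, for members (filled), all regions (open circles) and regions in genes of 100 to 500 kb (diamonds), in both directions of 8 comparisons. Members lie farthest to the right of all regions for regions only in PBS Kupffer cells (24.5% against 12.8% versus blood, 13.2% against 4.53% versus 48 h) and only in the Nr1h3 control and titled Smad4 control Kupffer cells.

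Signal was compared in regions with a peak in all libraries of the 2 groups, as log2(normalised tag count + 1) centred on the median region of each library, with limma and Benjamini-Hochberg adjustment over all tested regions (adjusted p of 0.05). A fold change is therefore relative to the median region. For Kupffer cells against blood, 550 members could be tested. Of these, 199 (36.2%) were higher in Kupffer cells, against 25.7% of all regions, and 109 (19.8%) were lower, against 25.3%. The median log2 fold change was 0.26 over the tested members and -0.00 over all tested regions. Centring removed a median shift of -0.40, and without it 102 members were higher and 141 lower.

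The largest rises in shared members from blood to PBS Kupffer cells were in Frmd4a, Adgrv1 and Ank2. A Frmd4a member (chr2:4452880-4453425) had 95.7 and 114.1 normalised tags in PBS Kupffer cells and 12.2 and 7.05 in blood monocytes. The Kupffer values lay far above both blood values (log2 fold change 3.75, SE 0.32, adjusted p = 3.7e-16 by limma with Benjamini-Hochberg). The member at the inner Ank2 start (chr3:127408918-127409206) had 181.0 and 172.6 in Kupffer cells and 23.6 and 22.6 in blood, a log2 fold change of 3.27 (SE 0.24). Its level at 24 h (23.4, 17.3 and 10.4) and 48 h (19.2 and 33.0) overlapped that of blood. A member in Adgrv1 (chr13:81352308-81352692), an adhesion receptor gene, had 118.5 and 127.5 in Kupffer cells, 10.6 and 22.6 in blood, 37.4, 39.0 and 35.1 at 24 h and 79.3 and 120.3 at 48 h. Here the 24 h values already stood above blood and the 48 h values above 24 h.

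The largest fall was in Wwox (chr8:115276351-115276631), an oxidoreductase gene at a fragile site. The member carried 232.0 and 294.6 normalised tags in blood, 151.7, 117.1 and 102.4 at 24 h, 49.7 and 48.4 at 48 h and 18 and 12.5 in PBS Kupffer cells. The 4 groups did not overlap and followed the order blood, 24 h, 48 h, Kupffer (log2 fold change -3.64, SE 0.24, for Kupffer cells against blood). In cultured macrophages the same member carried 110.6 and 99 untreated and 85.8 and 97.8 with DLL4. Members in Lpp (chr16:24517678-24517989) and St6galnac3 (chr3:153292888-153293226, a sialyltransferase gene) had log2 fold changes of -2.77 (SE 0.24) and -2.74 (SE 0.26). The Lpp member carried 162.0 and 196.6 in blood, 38.4, 34.5 and 50.3 at 24 h and 19 and 19.2 in Kupffer cells, so that all 24 h values lay far below both blood values.

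Few members differed in peak content between 24 h cells and blood monocytes. These groups differ in tissue, strain and toxin together, and the parts of each cannot be told apart. Of 1931 members called in either group, 62 (3.21%) were 24 h-only, against 3.02% of all regions, and 93 (4.82%) blood-only, against 4.49%, both near the share of all regions. The genes with most were Nav2 (4), Magi2 (3) and Arhgap24 (3) for 24 h-only members and Rad51b (7), Wwox (7) and Arhgap26 (6) for blood-only members. Signal in shared members differed in both directions. Of 739 tested, 101 (13.7%) were higher at 24 h, against 16.7% of all regions, and 97 (13.1%) lower, against 9.33% (limma). Without centring, which removed a median shift of -0.18, 46 were higher and 125 lower. Without the first blood library 99 members passed, and without the second 95. Group-only counts rose when a library was left out, to 114 (24 h-only) and 174 (blood-only) without the second blood library, to 219 (blood-only) without the first, and to 148 (24 h-only) without the third 24 h library.

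Early rises were seen in Foxp1 and in Dlg2, a synaptic scaffold gene. A Foxp1 member (chr6:99241666-99241951) carried 25.2 and 44.4 normalised tags in blood and 153.5, 184.3 and 87.3 at 24 h. All 24 h values lay above blood (log2 fold change 2.25, SE 0.24, limma), and the member stayed above blood at 48 h (197.8 and 246.4) and in PBS Kupffer cells (163.0 and 152.4). A member in Dlg2 (chr7:91457204-91457560) rose by 2.06 (SE 0.32) on the log2 scale. The largest falls at 24 h were in Pard3 (chr8:127540243-127540548, 166.9 and 273.5 in blood, 43.1, 30.9 and 33.2 at 24 h), in Atrnl1 (an attractin-like gene) and in Dock2, a Rac activator of leukocytes, with log2 fold changes of -2.30, -2.28 and -2.21. None of these 3 had a peak in PBS Kupffer cells.

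Between 24 h and 48 h, gains in peak content outnumbered losses. Of 2135 members, 143 (6.70%) were 48 h-only, against 5.09% of all regions and 6.82% in genes of 100 to 500 kb, and 8 (0.375%) were 24 h-only, against 0.609%. The 48 h lists were longer (75159 and 84395 peaks against 63682 to 69027), and with lists of equal length 70 members were 48 h-only and 33 were 24 h-only. The shares of all regions at equal list length are not given for these counts. Immp2l (a mitochondrial peptidase gene, 7), Nav2 (5) and Elmo1 (5) held most 48 h-only members. No gene held 2 or more of the 8 24 h-only members. Signal changed in few shared members. Of 825, 14 (1.70%) were higher at 48 h, against 1.92% of all regions, and 30 (3.64%) lower, against 3.53% (limma). Without centring (median shift 0.09) the split turned to 18 higher and 6 lower. The number passing also depended on single libraries. It was 13 and 6 without the first and second 48 h library, and 26, 27 and 85 without 24 h libraries 1, 2 and 3.

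Leaving out a library raised the group-only counts between these times as well. The 48 h-only count was 391 and 256 without the first and second 48 h library and 221 without the first 24 h library. Leaving out 24 h replicate 1, 2 or 3 gave 18, 15 or 27 members called at 24 h alone, and the count was 21 and 45 without the first and second 48 h library. Among shared members, an Arhgap15 member (chr2:44274498-44274942, in a gene of a Rac GTPase-activating protein) carried 31.8, 52.7 and 12.3 normalised tags at 24 h and 129.0 and 140.1 at 48 h. A Sema6d member (chr2:124610164-124610632, in a semaphorin gene) carried 121.7, 135.3 and 48.4 at 24 h and 327.7 and 333.7 at 48 h. It had 7.33 tags in the first blood library and no peak in the second. PBS Kupffer cells carried 250.2 and 293.3, and both 48 h values stood above both Kupffer values (log2 fold change 1.66, SE 0.24, for 48 h against 24 h). A Zfhx3 member (chr8:108910918-108911241) rose by 1.59 (SE 0.25) on the same scale. The Wwox member above was also the one that fell most (-1.46, SE 0.20), followed by members in Lsamp and Grip1. The calls in Zfhx3 and Lsamp were lost without the first 48 h library, that in Arhgap15 without the second, and that in Grip1 without the second 48 h or the first 24 h library, without centring and with quantile normalisation.

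PBS Kupffer cells still differed from 48 h cells, and members exceeded all regions more on the Kupffer side than on the 48 h side. Of 2525 members, 334 (13.2%) were Kupffer-only, against 4.53% of all regions and 5.46% in genes of 100 to 500 kb. The 48 h-only members numbered 404 (16.0%), against 12.8% of all regions and 14.5% in genes of 100 to 500 kb. With lists of equal length, 435 members (21.2%, against 8.20% of all regions) were Kupffer-only and 201 48 h-only, and without the first 48 h library 718 were 48 h-only. Kupffer-only members lay in Dlgap2 (16), Tenm2 (15) and Ptprm (13), and 48 h-only members in Foxp1 (24), Pde4d (23) and Arhgap26 (16). By list, Kupffer-only members were 47 of 195 in teneurins, cadherins and axon guidance genes, 19 of 83 in receptors and ion channels and 45 of 231 in synaptic genes. They were 34 of 268 in fragile site genes, 27 of 333 in transcription regulators and 39 of 516 in leukocyte genes. In the same order of lists, 48 h-only members numbered 41, 5, 47, 45, 61 and 95. Synaptic genes thus held similar numbers of both kinds (45 Kupffer-only and 47 48 h-only).

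Among shared members, rises outnumbered falls in Kupffer cells. Of 768 tested, 224 (29.2%) were higher in Kupffer cells than at 48 h, against 13.7% of all regions, and 66 (8.59%) lower, against 12.6% (limma). The median log2 fold change was 0.28 over members and -0.01 over all regions. Without centring (median shift -0.30), 133 were higher and 124 lower. A Magi2 member (chr5:19655941-19656330, in the gene of a synaptic and junctional scaffold) carried 13.1 and 9.53 normalised tags at 48 h and 113.7 and 140.9 in PBS Kupffer cells (log2 fold change 3.67, SE 0.28). A Lingo2 member (chr4:36014171-36014533) carried 12.2 and 49.1 against 182.0 and 202.3 (3.19, SE 0.28). Among the members that fell were 2 of Rabgap1l (a Rab regulator gene; chr1:160293502-160293805 and chr1:160268418-160268658, log2 fold changes -2.79 and -2.15). Among fragile site and housekeeping genes 40 of 93 tested members were higher and 3 lower, and among synaptic genes 19 of 39 were higher and 3 lower.

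The 590 Kupffer-only members were followed into the other groups, as a description of libraries that did not choose them. At 24 h 15.8% ± 5.80 (SD, n = 3) had a peak, against 28.0% of the 12055 other Kupffer-only regions, and at 48 h 37.1% ± 3.84 (n = 2), against 57.9%. In each of these 5 libraries the members' percentage was below that of the other regions. In Nr1h3 controls 72.5% of the members had a peak and in titled Smad4 controls 69.2%, against 79.9% and 77.5% of the other regions. In cultured macrophages it was 44.6% untreated and 47.3% with DLL4, against 49.8% and 54.7%. Of the 411 blood-only members, 63.3% had a peak at 24 h and 64.7% at 48 h, against 58.0% and 58.3% of other blood-only regions, and 73.2% had one in untreated cultured macrophages, against 68.5%. In Nr1h3 controls 3.53% of them had one, against 10.2%.

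**Figure D3:**
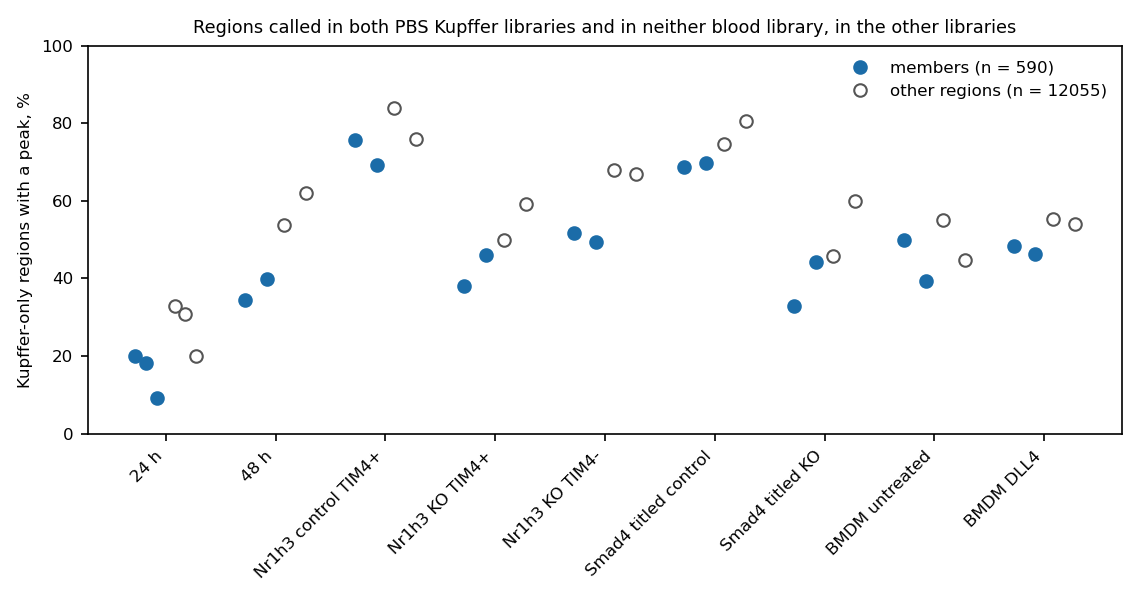
Percent of Kupffer-only regions (called in both PBS Kupffer libraries and in neither blood library) that have a peak in each library of the other 9 groups, for 590 members (filled) and 12055 other regions (open). In every group the mean of members is below that of other regions, with the smallest values at 24 h (15.8% against 28.0%).

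In the Nr1h3 experiment, TIM4+ knockout cells had no peak at many members called in control cells. Of 1441 members, 206 (14.3%) were control-only, against 7.69% of all regions and 10.2% in genes of 100 to 500 kb, and 9 (0.625%) knockout-only, against 1.06%. The knockout lists were shorter, and with lists of equal length 78 members (7.49%, against 4.00% of all regions) were control-only and 24 knockout-only. Control-only members were most numerous in Frmd4a (11), Ank2 (10) and Ptprm (8), and Arhgap26 alone held as many as 2 knockout-only members. Of 611 shared members, 12 (1.96%) were higher in the knockout, against 4.86% of all regions, and 68 (11.1%) lower, against 3.91% (limma). The median log2 fold change was -0.11 over members and 0.08 over all regions. Without centring (median shift -0.23), 0 were higher and 64 lower. Without the first knockout, the first control and the second control library, 46, 35 and 31 members passed.

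Group-only counts in TIM4+ cells rose when a library was left out. The control-only count was 420 without the second control and 321 without the second knockout library. The knockout-only count was 61, 29, 24 and 16 without the first and second knockout and the first and second control library. Among shared members, the Frmd4a member at chr2:4452880-4453425 carried 131.9 and 109.6 normalised tags in controls and 21.1 and 28.7 in TIM4+ knockouts (log2 fold change -1.94, SE 0.20). Its knockout values lay below both controls. A second Magi2 member (chr5:19666514-19666827) carried 105.8 and 88.5 in controls and 12.8 and 20.5 in TIM4+ knockouts (-2.20, SE 0.23), and had no peak in TIM4- knockouts or in any blood, 24 h or 48 h library. A Magi1 member (chr6:93758165-93758424) carried 82.1 and 62.7 against 7.02 and 23.9 (-2.06, SE 0.25). The largest rises, in Hdac9 (chr12:34449397-34449702, 1.13), Rad51b (chr12:79744128-79744442, 1.10) and Pde4d (chr13:109440374-109440722, 0.99), were smaller. All 3 of these calls were lost without centring, and each was lost without the first control library.

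TIM4- knockout cells gained and lost members in similar numbers, against an excess of gains over all regions. Of 1705 members, 163 (9.56%) were control-only, against 3.5% of all regions and 4.59% in genes of 100 to 500 kb. The knockout-only members numbered 140 (8.21%), against 6.6% of all regions and 7.26% in genes of 100 to 500 kb. With lists of equal length 171 members (12.3%, against 5.04% of all regions) were control-only and 67 knockout-only. The control-only count was 293 without the second control library. The knockout-only count was 232, 253 and 224 without the first knockout, the second knockout and the first control library. Control-only members were led by Ank2 (10), Sgcd (8 of its 18 members; the δ-sarcoglycan gene) and Frmd4a (8), and knockout-only members by Hdac9 (9), Syne1 (6; the nesprin-1 gene) and Dlg2 (5). By list, control-only members were 24 of 129 in synaptic genes, 23 of 112 in teneurins, cadherins and axon guidance genes and 10 of 43 in receptors and channels. They were 9 of 178 in fragile site genes, 9 of 243 in transcription regulators and 21 of 398 in leukocyte genes. In the same order of lists, knockout-only members numbered 13, 15, 1, 16, 27 and 30.

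Among shared members of this comparison, 38 of 746 (5.09%) were higher in TIM4- knockouts, against 7.03% of all regions, and 101 (13.5%) lower, against 6.68% (limma). Without centring (median shift 0.48) the split turned to 132 higher and 55 lower, so the direction of the whole set depends on the scaling, while the 3 largest falls passed either way. A member in Slit3 (chr11:35297422-35297690), a secreted axon guidance ligand, carried 96.0 and 92.4 normalised tags in controls and 8.84 and 8.72 in TIM4- knockouts (log2 fold change -3.68, SE 0.26). In TIM4+ knockouts it carried 16.0 and 56.6, between the other 2 groups. A Zfhx3 member (chr8:108901330-108901641) carried 72.9 and 48.2 in controls, 16.0 and 17.7 in TIM4+ and 7.66 and 8.17 in TIM4- knockouts (-3.16, SE 0.29, for TIM4- cells). It had no peak in blood, at 24 h or 48 h, or in culture. The largest rises were in Syne1 (chr10:5288294-5288697, 10.4 and 16.5 in controls, 62.4 and 53.9 in TIM4- knockouts, 1.66, SE 0.27), Sema6d (chr2:124264311-124264629, 1.54) and Nav2 (chr7:49093591-49093933, 1.40). The TIM4- comparison changes the surface marker together with the genotype, and the parts of both cannot be told apart.

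In the Smad4 experiment the libraries titled knockout had no peak at many members called in titled controls. Of 1553 members, 211 (13.6%) were found in titled controls only, against 6.97% of all regions and 8.78% in genes of 100 to 500 kb, and 19 (1.22%) in titled knockouts only, against 1.24%. With lists of equal length it was 90 (8.42%, against 3.78% of all regions) and 47. Titled-control-only members were led by Ptprm (10), St6galnac3 (7) and Lrmda (7), and titled-knockout-only members by Rad51b (3) and Pde4d (2). Of 586 shared members, 8 (1.37%) were higher in titled knockouts, against 1.57% of all regions, and 28 (4.78%) lower, against 1.5% (limma). Without centring (median shift -0.27), 0 were higher and 27 lower. Without the first titled knockout and the first titled control library, 21 and 19 passed. The titled-control-only count rose to 429, 330 and 357 without the first titled control, the second titled control and the second titled knockout library. The other count rose to 88, 44 and 45 without the first titled knockout, the second titled knockout and the second titled control library.

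Synaptic genes held 13 of these 28 lower members. Of 32 shared members in synaptic adhesion and scaffold genes, 13 were thus lower in titled knockouts and 0 higher, with a median log2 fold change of -0.73, against 1 higher and 1 lower of 29 in teneurins, cadherins and axon guidance genes. An Edil3 member (chr13:88828295-88828712, in the gene of an integrin-binding matrix protein) carried 71.5 and 76.0 normalised tags in titled controls and 8.93 and 17.4 in titled knockouts (-2.13, SE 0.24). The Zfhx3 member at chr8:108901330-108901641 carried 52.1 and 58.5 against 9.49 and 12.4 (-1.91, SE 0.26). It was thus below its controls in the 4 Nr1h3 knockout libraries and below the titled controls in the 2 titled Smad4 knockouts, which by strain label is above. A Ralyl member (chr3:13592601-13592919) carried 31.5 and 49.7 against 6.14 and 10.5 (-1.83, SE 0.29), and 185.8 and 183.1 in PBS Kupffer cells. The largest rises were in Rabgap1l (1.39), Arhgap26 (1.28) and Arhgap24 (1.23). These 3 were not called without centring, and each lost its call without 1 or more of the 4 libraries.

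In the synaptic genes of the Nr1h3 experiment, 12 of 38 shared members were lower in TIM4+ knockouts and 0 higher, and 13 of 39 were lower in TIM4- knockouts and 1 higher. Over all tested regions 3.91% were lower and 4.86% higher in TIM4+ knockouts, and 6.68% lower and 7.03% higher in TIM4- knockouts. The 2 Nr1h3 comparisons share their control libraries, and their values are given side by side without a test of likeness. In leukocyte signalling genes the counts were 1 higher and 12 lower of 154 in TIM4+ and 9 higher and 22 lower of 196 in TIM4- knockouts, and 3 higher and 2 lower of 156 in titled Smad4 knockouts. For receptors and channels it was 0 and 4 of 13 in TIM4+ and 1 and 2 of 14 in TIM4- knockouts. Fragile site genes had 1 and 10 of 62, and 1 and 10 of 88. Teneurins, cadherins and axon guidance genes had 0 and 3 of 30, and 4 and 7 of 36. Transcription regulators had 3 and 4 of 87, and 4 and 9 of 109.

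DLL4 changed few members in culture. Of 3184 members called in any of the 4 libraries, 88 (2.76%) were DLL4-only, against 2.1% of all regions, and 66 (2.07%) untreated-only, against 2.0%. DLL4-only members were led by Lpp, Dab1 and Cpq with 3 each, and untreated-only members by Dock2, Foxp1 and Arhgap26 with 3 each. Of 1686 shared members, 61 (3.62%) were higher with DLL4, against 2.36% of all regions, and 27 (1.60%) lower, against 1.52% (limma). Without centring (median shift 0.06), 60 were higher and 15 lower. Without the first and second DLL4 and the first and second untreated library, 36, 41, 45 and 26 members passed. The DLL4-only count was 203, 256 and 342 without the first and second DLL4 and the first untreated library, and the untreated-only count 128, 387, 140 and 130 without the first and second untreated and the first and second DLL4 library.

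The Sema6d member that rose from 24 h to 48 h after toxin was among the 3 that rose most with DLL4. It carried 49.8 and 33.3 normalised tags untreated and 143.2 and 160.1 with DLL4, with no overlap (chr2:124610164-124610632, log2 fold change 1.83, SE 0.17, adjusted p = 6.0e-17 by limma with Benjamini-Hochberg). A Cpq member (chr15:33186423-33186705, in a carboxypeptidase gene) carried 17.8 and 7.01 against 45.1 and 43.8 (1.85, SE 0.30), and a Macrod2 member (chr2:140863501-140863882, in a fragile gene) 13.5 and 9.63 against 43.6 and 42.4 (1.79, SE 0.30). The largest falls were in Zbtb20 (chr16:43184005-43184255, -1.35), Psd3 (chr8:68157250-68157576, -1.26) and Foxp1 (chr6:99392556-99392912, -1.18). Each of these 3 lost its call when some single library was left out. The Zbtb20 member had a peak in the 4 cultured libraries alone.

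**Figure D4:**
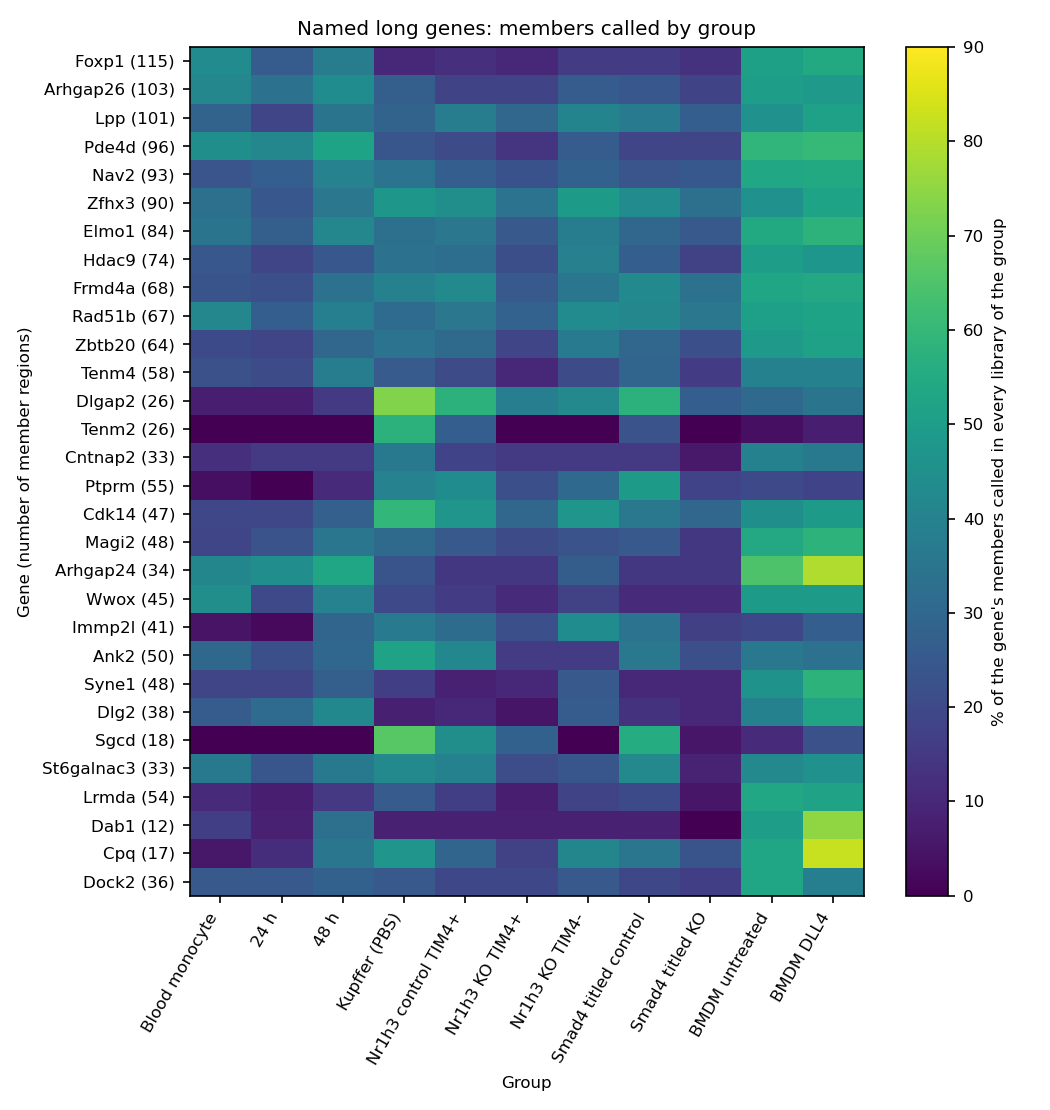
Percent of a gene's members called in every library of a group, for the named long genes (number of members in parentheses) and the 11 groups. Dlgap2, Tenm2, Sgcd and Cdk14 are highest in PBS Kupffer cells, Foxp1 and Pde4d in cultured macrophages and low in Kupffer groups, and Tenm2 and Sgcd have none in blood, at 24 h or at 48 h.

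Dlgap2 (chr8:14095776-14853426) held 26 members. In every library of a group, 2 were called in blood, 2 at 24 h, 4 at 48 h and 19 in PBS Kupffer cells. It was 15 in Nr1h3 controls, 10 in TIM4+ and 11 in TIM4- knockouts, 15 in titled Smad4 controls and 7 in titled knockouts, and 8 and 9 in untreated and DLL4-treated cultures. The strongest (chr8:14675532-14675884, 178 kb from the nearer end) had no peak in blood or at 24 h and carried 15.7 and 24.9 normalised tags at 48 h and 186.7 and 175.4 in PBS Kupffer cells (log2 fold change 3.41, SE 0.24, for Kupffer cells against 48 h, limma). It carried 108.2 and 105.6 in Nr1h3 controls, 56.2 and 66.2 in TIM4+ and 40.7 and 44.1 in TIM4- knockouts, 52.7 and 64.0 in titled Smad4 controls and 17.9 and 30.4 in titled knockouts. The Nr1h3 controls stood above the Nr1h3 knockouts, and the titled Smad4 controls above the titled knockouts (below, by strain label). Untreated cultures had 64.5 and 46.4 and DLL4-treated ones 86.5 and 97.8. By contrast, a member 11 kb from the end of the gene (chr8:14842205-14842572) was called in all 23 libraries, with 64.3 and 88.8 in blood and 82.5 and 90.1 in PBS Kupffer cells. A member at chr8:14107750-14108052 ran the other way, called in every blood, 24 h, 48 h and cultured library (8.95 to 27.6) and in no PBS Kupffer library.

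Tenm2 (chr11:36006656-37237053), the gene of teneurin-2, an adhesion receptor of synapses, also held 26 members. No library of blood, 24 h or 48 h cells had a peak in any of them. In every library of a group, 15 were called in PBS Kupffer cells, 7 in Nr1h3 controls and 6 in titled Smad4 controls, and 0 in TIM4+ Nr1h3, TIM4- Nr1h3 and titled Smad4 knockouts. The member at chr11:36941998-36942311 carried 74.9 and 78.6 normalised tags in PBS Kupffer cells, 33.5 and 29.0 in Nr1h3 controls and 16.4 and 16.9 in titled Smad4 controls. It had a peak in none of the other 17 libraries. A member at chr11:37077334-37077602 carried 56.9 and 54.6 in PBS Kupffer cells and was also called in the 4 cultured libraries (7.99 to 21.5) and in the second TIM4+ knockout library (7.51). The annotated start of Tenm2 in the RefSeq table was not called in every library of any group.

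Cntnap2 (chr6:45060061-47301393), the gene of a contactin-associated adhesion protein, held 33 members over 2241 kb. PBS Kupffer cells had 12 in every library, untreated and DLL4-treated cultures 13 and 12, blood 4, and 24 h and 48 h cells 5 each. Nr1h3 controls had 6, TIM4+ and TIM4- knockouts 5 each, titled Smad4 controls 5 and titled knockouts 2. Its Kupffer member at chr6:46450441-46450724, 851 kb from the nearer end, carried 237.0 and 232.0 normalised tags in PBS Kupffer cells and 89.7 and 89.8 in Nr1h3 controls. It carried 33.8 and 56.0 in TIM4+ and 16.5 and 9.26 in TIM4- knockouts (log2 fold change -3.16, SE 0.25, for TIM4- cells), 54.5 and 57.9 in titled Smad4 controls and 16.7 and 19.2 in titled knockouts. It had no peak in blood, at 24 h, at 48 h or in culture, and each Nr1h3 knockout value lay below each control value. Both titled Smad4 knockout values lay below the titled controls, and by strain label the order is the opposite. A member at chr6:45271588-45271853 showed the opposite, with 52.9 and 92.3 in blood, 50.6, 52.7 and 55.0 at 24 h, 28.8 and 26.4 at 48 h and 106.9 to 173.0 in culture, and no peak in any of the 12 Kupffer cell libraries. Neither annotated start of Cntnap2 was called in every library of any group.

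**Figure D5:**
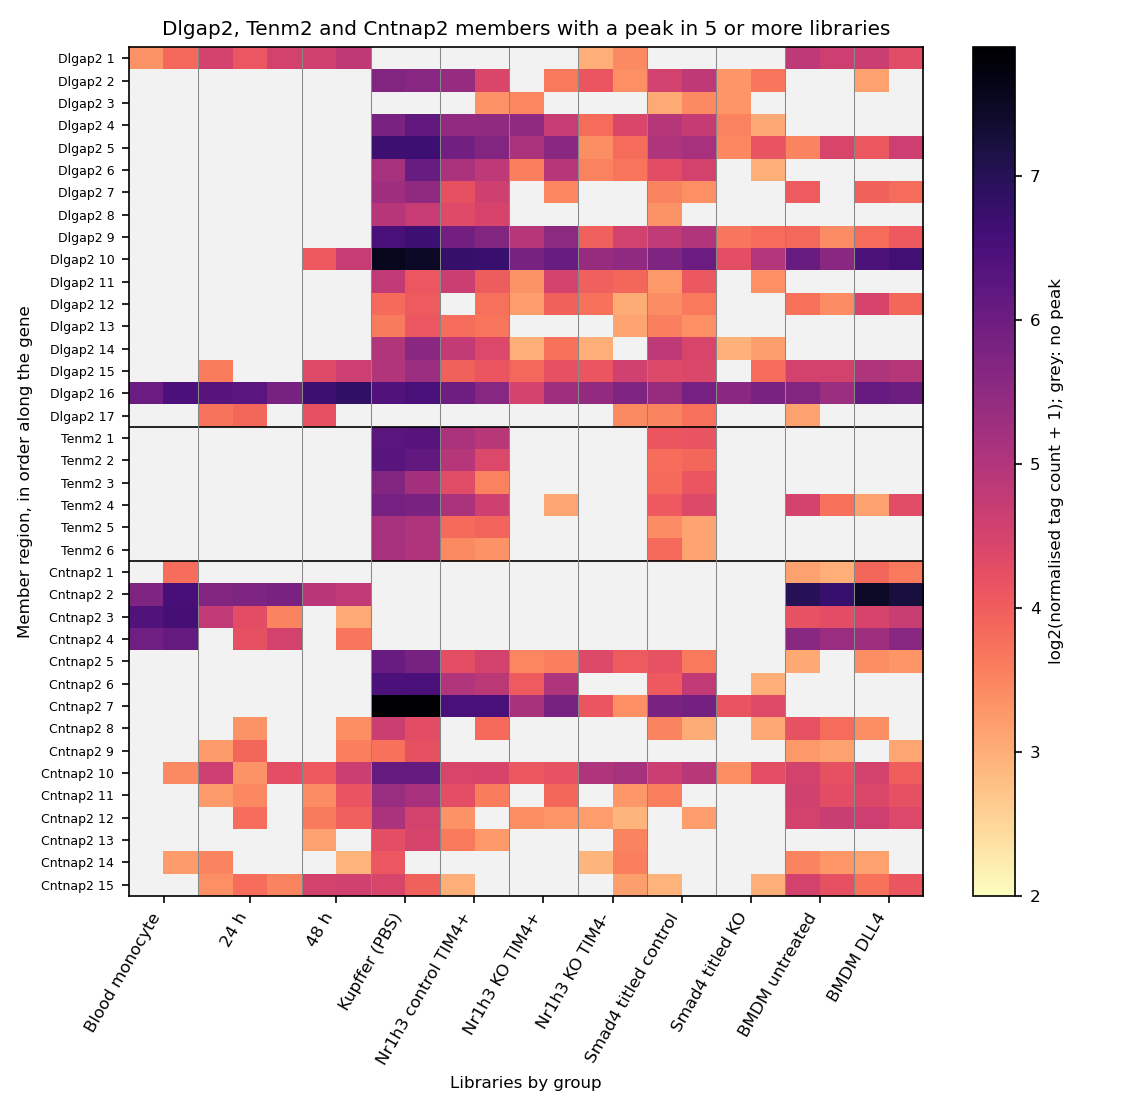
Log2(normalised tag count + 1) in 23 libraries (columns, by group) of the Dlgap2, Tenm2 and Cntnap2 members called in 5 or more libraries (rows, in order along each gene). Grey means no peak. Tenm2 members are filled in PBS Kupffer, Nr1h3 control and titled Smad4 control libraries and empty in blood, 24 h and 48 h libraries, while Cntnap2 holds a block near its start that is filled in blood and cultured cells and empty in Kupffer cells.

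Ptprm (chr17:66666848-67354491) and Sgcd (chr11:46971077-47989451) also held more called members in Kupffer cells than in blood. Of the 55 Ptprm members, 2 were called in every blood library, 0 at 24 h, 6 at 48 h, 22 in PBS Kupffer cells, 24 in Nr1h3 controls and 27 in titled Smad4 controls. It was 12 in TIM4+ and 17 in TIM4- Nr1h3 knockouts and 10 in titled Smad4 knockouts. The member at chr17:67304895-67305245 carried 25.3 and 27.1 normalised tags at 48 h, 130.8 and 129.4 in PBS Kupffer cells, 165.4 and 138.6 in Nr1h3 controls and 159.1 and 169.4 in TIM4- knockouts, where the knockout values overlapped those of the controls. A Ptprm member at chr17:67246494-67246776 had a peak in the 6 PBS, Nr1h3 control and titled Smad4 control libraries (13.4 to 27.5) and in no other. The annotated Ptprm start was called in every library of each group. Of the 18 Sgcd members, 12 were called in PBS Kupffer cells, 8 in Nr1h3 controls, 10 in titled Smad4 controls, 5 in TIM4+ knockouts and 0 in TIM4- knockouts. The Sgcd member at chr11:47063767-47064101 carried 206.6 and 214.7 in PBS Kupffer cells, 85.6 and 69.3 in Nr1h3 controls and 40.2 and 46.4 in TIM4+ knockouts, and had no peak in TIM4- knockouts, in blood, at 24 h or at 48 h.

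A stricter set was common to the 3 control Kupffer groups. It comprised 107 members (of 2322 regions) called in all 6 libraries of PBS, Nr1h3 control and titled Smad4 control cells and in no blood or cultured library. Ptprm held 12 of them, and Dlgap2, Frmd4a, Sema6d, Tenm2 and Tenm4 held 5 each. At 24 h 1.87% to 4.67% of the 107 had a peak, against 9.84% to 14.5% of the other regions of the set, and at 48 h 15.9% and 18.7%, against 37.7% and 42.4%. In the first and second TIM4+ knockout libraries 53.3% and 58.9% had one (others 54.5% and 62.7%), in TIM4- knockouts 56.1% and 47.7% (60.6% and 59.0%), and in titled Smad4 knockouts 38.3% and 57.0% (48.3% and 67.9%). In each of these 11 libraries the members' percentage was the lower.

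Of the 107, 82 had no peak at 24 h or 48 h, and 23 had none in any of the 6 Nr1h3 knockout and titled Smad4 knockout libraries. A peak in the 6 PBS, control and titled control libraries and in none of the other 17 was found for 21 members (19.6%), against 314 of all 2322 regions (13.5%). Tenm2 held 5 of the 21. Adamtsl1 held 2, and St6galnac3, Ptprm, Pcdh9, Cntn5, Csmd1, Clstn2, Sgcd, Kcnma1, Lingo2, Pcdh15, Tenm4 and Il1rapl1 held 1 each. Several of these encode cadherins, contactins or other adhesion proteins of neurons, such as Pcdh9, Pcdh15, Cntn5 and Clstn2. In the opposite corner, 254 members (of 5714 regions) were called in all 4 cultured libraries and in no other library, with 8 each in Elmo1, Lrmda and Nav2.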

How the data were processed

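Per the file headers, the deposited signal values are normalised tag counts per peak. The authors had HOMER findPeaks compute them separately for each library, per 10 M tags, keeping peaks at a discovery rate of 0.001 with 4-fold enrichment over the local 10 kb and a local p of 0.0001, without input. Bowtie2, HOMER and mm10 are named in the submitters' processing notes; their versions are not given in the sources used here. Only peaks were read, and no reads were counted again.

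From these files, 1605886 peaks were read, 1205 of them outside the 19 autosomes and the X chromosome were left out, and the rest were merged at an overlap of at least 1 bp. The strongest of several peaks of a library in a region gave the value. Gene bodies and start windows came from RefSeq tables of GRCm38.p6 (21631 protein-coding genes), and an annotated start was found for 179 of the 227 long genes. A region was group-only when all libraries of a group and none of the other group had a peak there, and percentages use regions called in any library of both. Shared regions were tested with limma 3.58.1 in R 4.3.3 on log2(normalised tag count + 1), centred per library, with a mean-variance trend, two-sided, with Benjamini-Hochberg adjustment over all tested regions, after the script was tested on simulated data. Tables were joined with Python 3.11.15, pandas 2.3.3 and numpy 2.4.6.

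The members, gene lists and tests were chosen with earlier results of these data known. Named were the 12 genes with most members, Dlgap2, Tenm2 and Cntnap2, up to 3 genes and up to 3 regions a direction with the most group-only members or the largest passing fold change, the 5 strongest members called everywhere and the genes without a member. Ptprm and Sgcd regions, the start windows and the control Kupffer set were chosen after their values were seen. Replicate numbers in the Nr1h3 and DLL4 titles were checked for pairing. Alternatives were other scalings, a pseudocount of 5, a minimum of 15 normalised tags, merging at 100 bp, equal list lengths, other gene lengths (300 kb, 1 Mb), 50 kb from the ends and leaving out each library. Values of some named genes are not reported here.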

Additional observations from a re-analysis of the deposited data

How the results depend on the processing

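No direction of a named member turned under any alternative run, and 375 of 409 values for the 48 named members stayed on their side of the threshold, while 34 (in 13 members) no longer passed. Among counts of members passing limma, 44 became 24 without centring (48 h against 24 h) and 88 became 42 with quantile normalisation (DLL4). With a replicate block, 85, 141 and 81 members passed for TIM4+, TIM4- and DLL4 against 80, 139 and 88. Over regions, deviations from the group mean in libraries of the same replicate number were nearly uncorrelated (0.009, -0.004 and -0.038). These correlations cannot show whether such libraries were prepared together. TIM4+ and TIM4- knockouts were not checked against each other. Leaving out 1 library gave 244 to 286 (Kupffer against blood), 95 to 236 (24 h against blood), 6 to 85 (48 h against 24 h), 195 to 254 (Kupffer against 48 h), 31 to 78 (TIM4+), 95 to 104 (TIM4-), 19 to 30 (Smad4) and 26 to 45 (DLL4), with fewer samples by construction.

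For group-only counts, merging at 100 bp moved none by over 1.5 times. With at least 15 normalised tags and with equal list lengths, 48 h-only members against 24 h were 67 and 70, 24 h-only 17 and 33, 48 h-only against Kupffer 224 and 201, TIM4+ knockout-only 3 and 24 and its control-only 115 and 78, TIM4- knockout-only 62 and 67, Smad4 titled-knockout-only 9 and 47 and titled-control-only 109 and 90. With at least 15 tags alone, control-only members against TIM4- were 99 and untreated-only members 43. Leaving out 1 library gave 623 to 775 Kupffer-only and 458 to 607 blood-only members, 81 to 148 (24 h-only) and 117 to 219 (blood-only against 24 h), 165 to 391 (48 h-only) and 15 to 45 (24 h-only against 48 h), 377 to 485 (Kupffer-only against 48 h) and 466 to 718 (48 h-only), 16 to 61 and 243 to 420 (TIM4+ knockout-only and control-only), 174 to 253 and 185 to 293 (TIM4-), 28 to 88 and 235 to 429 (Smad4 titled knockout and control), and 113 to 342 and 128 to 387 (DLL4-only and untreated-only). Where such a count stands without the share of all regions in the same setting, it shows how far the count moved. It does not show how members compare with all regions there. In 6 of 116 alternatives the members' percentage changed side of that of all regions. The share test over the repopulation groups gave an exact permutation p of 0.0564 with at least 15 tags and 0.0619 with equal list lengths, 0.00873 to 0.027 with other gene lengths or distances from the ends, and 0.00952 to 0.0405 with 1 library left out. The cause of these shifts was not tested. Peaks near the calling threshold limit what an absent peak shows.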
